A study of Danio rerio with 9 samples.

Results

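Intestinal RNA of zebrafish coded D3 was set against that of zebrafish coded SBM. The members were chosen by library name alone: the 3 D3 libraries and the 3 SBM libraries, 6 of the 9 libraries of the series, with every gene of the count table. By its title, the study is about soybean meal enteritis and β,β-dimethylacryloyl shikonin, a compound derived from a plant naphthoquinone pigment. All 9 libraries are labelled as intestine of Danio rerio. What D3, SBM and FM stand for is not written out in the labels, which give no strain, genotype, diet, dose, time, age or sex, so no treatment is assigned to a code here. The 3 libraries coded FM are given beside the others as a reference. They entered the test of D3 against SBM through the gene filter, the scaling factors and the shared estimate of spread. The labels do not say whether the 3 replicates of a group were separate fish or pools, so every test here rests on sample-to-sample spread that could be partly technical.

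The gut wall of the zebrafish is a layer of absorptive enterocytes with scattered goblet and enteroendocrine cells, wrapped in connective tissue, enteric nerves and smooth muscle. Enterocytes of the hind part, called lysosome-rich enterocytes, take up whole proteins from the lumen through the receptors cubilin and amnionless with the adaptor Dab2, and break them down with lysosomal proteases. Enteritis caused by soybean meal, best known from salmon, is marked by shortened folds, immune cells in the lamina propria and fewer absorptive vacuoles in the enterocytes.

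Values are CPM, counts scaled to a common library size, in the order of library 1, 2 and 3. The 6 libraries held between 34721741 and 36203230 counts, with 23428 to 24472 genes detected. Enterocyte genes were present in all 6. The microvillus gene vil1 lay between 802 and 1650 CPM and the intestinal cadherin gene cdh17 between 633 and 1240. Transcripts of other organs differed within groups. The ovary and oocyte list of 61 tested genes took 1.53, 0.066 and 0.261% of the counts of the SBM libraries and 0.108, 0.11 and 1.57% of those of the D3 libraries. The hepatocyte list of 77 genes took 0.952, 6.81 and 0.327% in SBM and 3.64, 9.65 and 0.449% in D3. Its vitellogenin gene vtg1 weighed in the share of D3 library 2, at 48.7, 2250 and 24.7 CPM in SBM and 29.4, 27000 and 8.32 in D3. The liver fatty acid binding gene fabp10a was instead highest in SBM library 2. It was at 197, 3920 and 32.1 CPM in SBM and 1760, 2050 and 105 in D3. The exocrine pancreas list of 40 genes took 17.4, 20.3 and 14.8% in SBM and 15.5, 10.1998 and 18.2% in D3. SBM library 1 and D3 library 3, both high in oocyte genes, resembled each other more (Spearman correlation over genes 0.9748) than D3 library 3 resembled D3 library 1 (0.8528) or D3 library 2 (0.8648). On the first principal component of the 6 libraries, with 57.95% of the variance, D3 library 3 and SBM library 1 stood at one end and SBM library 2 with D3 libraries 1 and 2 at the other. Results are therefore also given without SBM library 1 and D3 library 3, the pair high in oocyte genes, which leaves 2 libraries a group. They are given as well without SBM library 2 and D3 libraries 1 and 2, the trio high in hepatocyte genes, which leaves D3 with library 3 alone, taken to vary like the other groups. The labels name no batch.

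**Figure D1:**
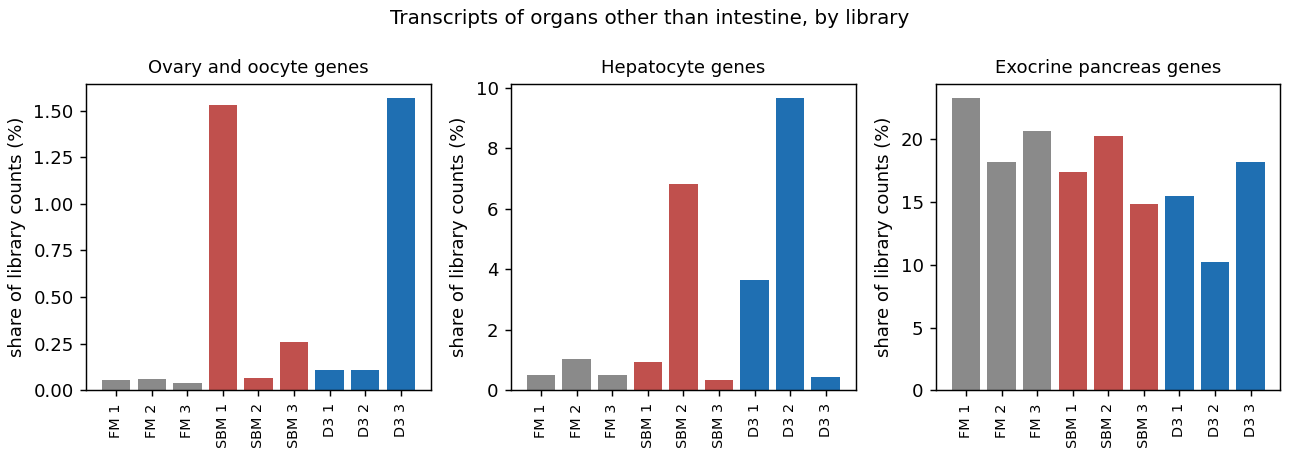
Share of each library's counts, in percent, taken by lists of ovary and oocyte, hepatocyte and exocrine pancreas genes, with 1 bar per library. Oocyte genes peak in SBM library 1 (1.53%) and D3 library 3 (1.57%), and hepatocyte genes in D3 library 2 (9.65%), SBM library 2 (6.81%) and D3 library 1 (3.64%), so neither separates D3 from SBM. The hepatocyte share of D3 library 2 includes vtg1 at 27000 CPM.

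In D3 against SBM, 0 of 19450 tested genes passed edgeR's quasi-likelihood test at a Benjamini-Hochberg adjusted p under 0.05 (0.0% called; smallest adjusted p 0.781). At an unadjusted p under 0.05, 145 genes were higher in D3 (0.746%) and 257 lower (1.32%), 402 in all (2.07%). Of all tested genes, 389 (2.0%) had every D3 library above every SBM library and 497 (2.56%) had every D3 library below, together 4.56% not overlapping. The fitted log2 fold change was above 0 for 10635 genes (54.7%) and below 0 for 8804 (45.3%), with a median of 0.03. DESeq2 on the same counts called 5 genes (0.0257%), and limma-voom 0. Without D3 library 3, 1491 genes had an unadjusted p under 0.05, and without SBM library 1 there were 852, with 0 called in both. The edgeR fit on the 6 libraries alone, without FM, had 208 of 19033 genes at that level and called 0. The values that follow therefore describe the 6 libraries, and "above" or "below" the other group in every library means that the 2 groups did not overlap. Values in parentheses after a gene are its log2 fold change of D3 over SBM ± SE, from edgeR's quasi-likelihood fit, whose Benjamini-Hochberg adjusted p was 1.0 unless stated.

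Among genes above SBM in every D3 library, those with the smallest p included genes of complement, oxidative protein folding, haem synthesis and cobalamin transport. c7b, which encodes a component of the complement membrane attack complex, stood at 1.14, 1.6 and 3.35 CPM in SBM, 4.82, 201 and 31.9 in D3 and 1.19, 1.21 and 1.42 in FM. The SBM values were near those of FM, while the D3 values were far apart, with library 2 above the rest. The log2 fold change of 5.28 ± 1.22 became 3.17 when D3 library 2 was left out. The hepatocyte list took 0.952, 6.81 and 0.327% of counts in SBM and 3.64, 9.65 and 0.449% in D3, with vtg1 at 27000 CPM in D3 library 2. SBM library 2, with 6.81%, held c7b at 1.6 CPM, and D3 library 3, with 0.449%, at 31.9 CPM. The fold change of c7b was 3.74 without the hepatocyte-high libraries. The part of liver RNA in the c7b values was not tested. tcnl, a transcobalamin-like gene of the family that binds vitamin B12, stood at 22.6, 37.3 and 14 CPM in SBM, 583, 103 and 141 in D3 and 62.9, 22 and 112 in FM. The lowest D3 library was above the highest SBM library, and FM overlapped both (3.49 ± 0.85). DESeq2 called both genes, with an adjusted p of 0.000397 for c7b and 0.0212 for tcnl.

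The 3 D3 libraries lay close together for ero1a, the endoplasmic reticulum oxidase that keeps protein disulfide isomerase oxidised. The SBM libraries held 20.7, 28.2 and 30.2 CPM, D3 50.4, 48.6 and 45.8 and FM 53.7, 39.4 and 41.9, so that D3 was above SBM and overlapped FM (0.87 ± 0.20). The fold change lay at 0.73 to 0.99 over the 19 alternatives. cpox, which encodes coproporphyrinogen oxidase of the haem pathway, stood at 23.9, 21.3 and 20.8 CPM in SBM, 46.5, 49 and 29.5 in D3 and 31, 28.4 and 34.7 in FM (0.92 ± 0.22). D3 library 3 was the lowest of D3, and the fold change was 0.34 when D3 rested on that library alone. The phosphatase gene dusp23a was at 3.9, 3.85 and 4.45 CPM in SBM and 7.67, 8.22 and 6.81 in D3 (0.89 ± 0.23).

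The other genes of this set carry no named function in the files. si:ch1073-67j19.1 stood at 5.11, 3.76 and 2.63 CPM in SBM, 16.5, 23.15 and 8.2 in D3 and 2.77, 3.87 and 1.2 in FM, so FM was on the side of SBM (2.06 ± 0.52). LOC101885212 was at 11.7, 9.9 and 11.2 CPM in SBM and 32.5, 30.7 and 13.4 in D3, with D3 library 3 just above SBM (1.22 ± 0.34). LOC110440138 was below 2 CPM in all 9 libraries. Among genes of at least 20 CPM in a group, the largest fold changes besides c7b and tcnl were those of si:ch211-113d11.6, lct and si:dkey-58f10.11. lct, the gene of the brush border lactase family, stood at 22.2, 18.6 and 5.38 CPM in SBM, 104, 28.4 and 22.9 in D3 and 15.2, 20.02 and 17.2 in FM. D3 library 1 set most of the fold change of 1.75 ± 0.67, which was 0.74 without it. si:ch211-113d11.6 was at 8.81, 9.01 and 6.05 CPM in SBM and 65.9, 11 and 11.07 in D3, likewise mainly through D3 library 1. si:dkey-58f10.11 was at 37.9, 27.5 and 23.4 CPM in SBM and 122, 94.8 and 71.1 in D3 (1.70 ± 0.55). No gene with a mean of at least 500 CPM in a group was above SBM in every D3 library.

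**Figure D2:**
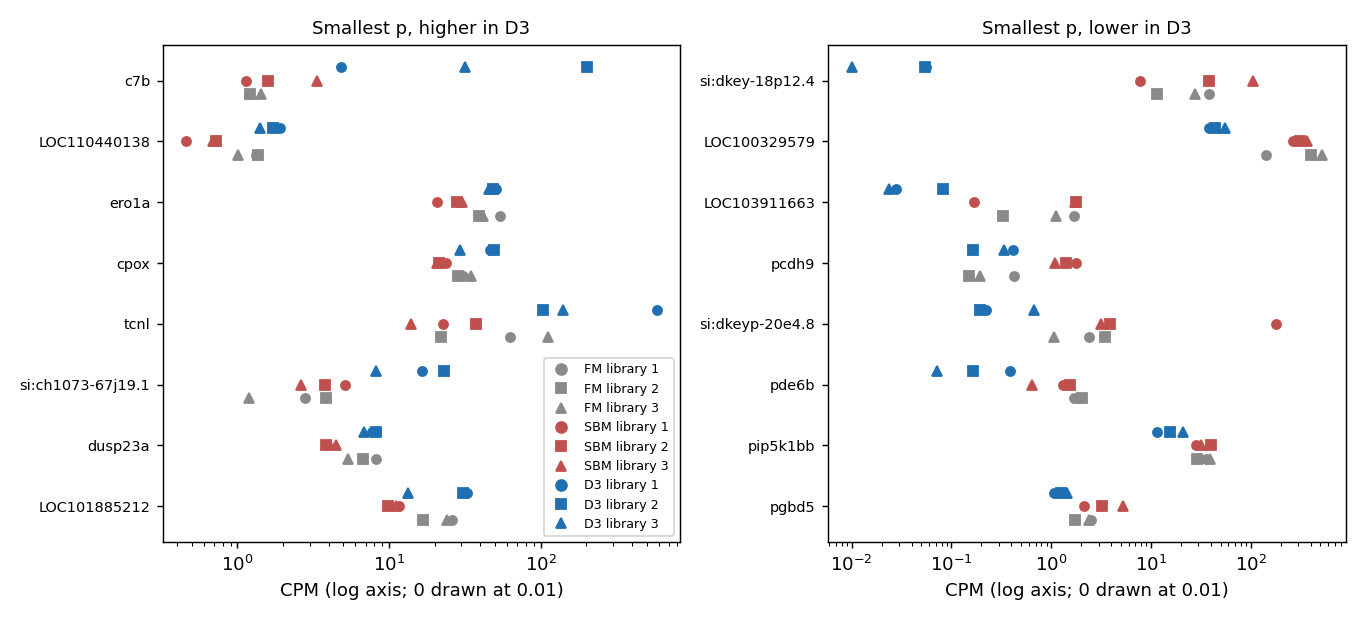
CPM on a log axis in each of the 9 libraries for the 8 genes with the smallest p among those above SBM in every D3 library (left) and the 8 among those below (right). Grey marks are FM, red SBM and blue D3, and the symbol gives the library number. For ero1a the D3 libraries lie within 45.8 to 50.4 CPM, while for c7b they spread from 4.82 to 201 CPM.

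On the lower side, 2 uncharacterised genes stood apart in all 3 D3 libraries. si:dkey-18p12.4 was at 7.87, 38.2 and 105 CPM in SBM, 0.0554, 0.0548 and 0 in D3 and 38.5, 11.7 and 27.5 in FM. Its D3 libraries were at or near 0 and the 6 others all above 7 CPM (−10.34 ± 1.34, adjusted p = 0.78 by edgeR's quasi-likelihood test). It was the gene with the smallest adjusted p, and DESeq2 called it (adjusted p = 3.1e-16). The edgeR fit with oocyte and hepatocyte list levels as covariates, added after the data were seen, also called it (adjusted p = 0.0214). LOC100329579 stood at 268, 310.2 and 367 CPM in SBM, 38, 44.1 and 55.6 in D3 and 142, 406 and 519.6 in FM. Neither group overlapped the other, the 3 values within each lay close together, and the fold change of −2.78 ± 0.45 lay at −3.07 to −2.58 over 19 alternatives. The adjusted p was 1.0 by edgeR and 3.66e-05 by DESeq2. The last of the 5 DESeq2 calls, si:dkeyp-98a7.4, named here after its values were seen, was at 52.8, 0.751 and 3.16 CPM in SBM and 0.166, 0.411 and 0.24 in D3. SBM library 1 alone was high. The same holds for si:dkeyp-20e4.8, at 178, 3.89 and 3.14 CPM in SBM, 0.222, 0.192 and 0.671 in D3 and 2.41, 3.44 and 1.07 in FM.

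pip5k1bb, a lipid kinase gene that makes phosphatidylinositol bisphosphate, stood at 28.3, 39.9 and 31.8 CPM in SBM, 11.5, 15.7 and 20.9 in D3 and 35.5, 28.8 and 39.1 in FM (−1.05 ± 0.26). FM was in the range of SBM, and D3 was below both. The domesticated transposase gene pgbd5 was at 2.13, 3.23 and 5.29 CPM in SBM and 1.08, 1.26 and 1.44 in D3 (−1.49 ± 0.38). The protocadherin gene pcdh9, the photoreceptor phosphodiesterase gene pde6b and LOC103911663 were at or below 2.05 CPM in all 9 libraries. si:ch211-11p18.6 was at 89.4, 35.3 and 108 CPM in SBM, 21, 27.6 and 11.4 in D3 and 12.5, 15.9 and 75.9 in FM, with 2 FM libraries as low as D3.

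Of the 26983 genes of the count table, 5 besides si:dkey-18p12.4 were near absent in D3. They held at most 10 counts over the 3 D3 libraries and at least 10 in each SBM library. LOC100331508 had 23, 205 and 47 counts in SBM and 0, 0 and 3 in D3, with 0, 0 and 38 in FM. The ratio of SBM to D3, corrected for library size, was 92.27 (exact 95% interval 31.24 to 450.2, counting error only). The gene was selected by these same counts, so a large ratio was built in, and SBM library 2 gave most of the SBM counts. LOC103910198 had 44, 20 and 42 counts in SBM and 1, 4 and 1 in D3. The other 3 were neto1l, nmur3, a receptor gene for neuromedin U, and an uncharacterised gene, with 40 to 62 counts over SBM and 6 to 10 over D3. The reverse was met by 1 gene, LOC100332698, with 2, 2 and 3 counts in SBM and 15, 33 and 14 in D3.

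Of the gene lists, smooth muscle stood out on the lower side. Of 37 tested contractile genes, 33 had a fold change below 0 and 4 above, with a median of −0.31 against 0.03 for all genes. In 10 of them every D3 library was below every SBM library and in 1 above, 29.7% not overlapping against 4.56% of all genes. None passed the adjusted test. The list's level, its mean log2 CPM centred on the 6 libraries, was −0.10, 0.34 and 0.20 in SBM, −0.11, −0.10 and −0.24 in D3 and 0.27, 0.49 and 0.47 in FM. SBM library 1 was as low as D3 libraries 1 and 2, and the other SBM libraries and all of FM were higher. The median was below 0 in all 19 alternatives, at −0.44 to −0.20. In bulk tissue, fewer cells of a type and less RNA per cell cannot be told apart.

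cnn1b, which encodes a calponin bound to the thin filaments of smooth muscle, stood at 49.5, 70.31 and 65.4 CPM in SBM, 41.7, 42.4 and 32.2 in D3 and 77.8, 76.6 and 75.3 in FM. Every D3 library was below every SBM and FM library (−0.67 ± 0.20; −0.90 to −0.56 over the alternatives). mylkb, a myosin light chain kinase gene, whose product starts contraction, was at 13.4, 18.1 and 17.5 CPM in SBM, 10.52, 11.2 and 9.08 in D3 and 13.9, 18.8 and 18.6 in FM (−0.67 ± 0.21). The calcium release channel gene ryr2a was below 0.6 CPM throughout (−1.09 ± 0.43). The other 7 genes below SBM were synpo2b, mrvi1, pgm5, cald1b, lmod1b, itga1 and actn1, with fold changes from −0.70 to −0.32. Abundant contractile genes overlapped between the groups. acta2, the smooth muscle actin gene, was at 438, 722 and 598 CPM in SBM and 580.0, 417 and 387 in D3 (−0.34 ± 0.27), and myh11a, the smooth muscle myosin heavy chain gene, at 144, 189 and 176 in SBM and 152, 149 and 113 in D3 (−0.30 ± 0.20). tagln, which encodes transgelin, was at 184, 291 and 225 CPM in SBM and 256, 222 and 167 in D3 (−0.12 ± 0.25). myl9b, a regulatory light chain gene, was the exception above SBM, at 42.6, 40.9 and 46.3 CPM in SBM, 66.3, 53.4 and 66.3 in D3 and 95.2, 56.1 and 79.2 in FM (0.52 ± 0.22).

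Soluble guanylyl cyclase, the receptor through which nitric oxide relaxes smooth muscle, was low in D3 for both subunits. gucy1b3 stood at 5.88, 6.43 and 4.67 CPM in SBM, 2.85, 2.55 and 3.09 in D3 and 7.29, 12.6 and 10.8 in FM (−1.0 ± 0.27). gucy1a3 was at 5.35, 5.09 and 4.62 CPM in SBM, 3.1, 4.27 and 3.84 in D3 and 6.03, 7.31 and 6.57 in FM (−0.43 ± 0.22). For both genes D3 was below every SBM and FM library, for gucy1a3 by a narrow step. The fold change of gucy1b3 lay at −1.12 to −0.65 over the alternatives. Of the 26 prostaglandin and nitric oxide genes, their list, 14 were above 0 and 12 below, with a median of 0.02. These 2 were below SBM in every D3 library and 1 was above (11.54% not overlapping against 4.56% of all genes).

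Other lists of the gut wall had medians of the same sign. Of 52 collagen and matrix genes, 38 were below 0 and 14 above, with a median of −0.14 (−0.27 to −0.08 over the alternatives), and 11 were below SBM in every D3 library and 1 above (23.08% not overlapping against 4.56%). The list's level overlapped, at 0.05, 0.28 and −0.01 in SBM and 0.12, −0.25 and −0.19 in D3. The collagen VI gene col6a2 stood at 111, 119 and 119 CPM in SBM, 94.3, 88.1 and 91.1 in D3 and 124, 160.2 and 182 in FM (−0.36 ± 0.19). Its partner chain col6a1 was at 186, 214 and 223 CPM in SBM and 172, 178 and 162 in D3 (−0.28 ± 0.18), and the basement membrane collagen gene col4a1 at 18.2, 24.4 and 17 in SBM and 16.3, 13.6 and 15.2 in D3 (−0.40 ± 0.20). bgnb, which encodes the proteoglycan biglycan, was at 9.37, 13.7 and 12.1 CPM in SBM and 7.59, 9.26 and 7.81 in D3 (−0.51 ± 0.23). These groups did not overlap, and the steps between them were small. The lysyl oxidase gene loxa was at or below 2.03 CPM in all libraries (−1.41 ± 0.56). The collagen gene col5a3a had a fold change above 0, with overlap (1.82 ± 0.81). It was at 0.557, 0.327 and 0.407 CPM in SBM and 0.305, 0.822 and 3.45 in D3.

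Of 44 enteric neuron and glia genes, 30 were below 0, with a median of −0.19 (−0.36 to −0.05), with 3 below SBM in every D3 library and 1 above (9.09% not overlapping against 4.56% of all genes). elavl3, an RNA-binding protein gene of neurons, was at 1.02, 1.05 and 1.34 CPM in SBM and 0.526, 0.794 and 1.01 in D3 (−0.54 ± 0.36). The groups did not overlap, but SBM library 1 and D3 library 3 both held 42 counts and differed only through scaling. Its relative elavl4 overlapped, at 1.09, 0.849 and 0.838 CPM in SBM and 0.942, 0.74 and 0.839 in D3 (−0.14 ± 0.34). hand2, a transcription factor gene of the gut mesenchyme and of enteric neurons, stood at 4.84, 7.32 and 5.89 CPM in SBM, 4.07, 4.19 and 3.69 in D3 and 7.02, 6.86 and 6.76 in FM (−0.59 ± 0.23). chata, which encodes the enzyme that makes acetylcholine, was under 0.6 CPM in all 9 libraries, and the synuclein gene sncgb, the 1 above SBM, was at 0.315, 0.0653 and 0.311 CPM in SBM and 0.609, 0.466 and 0.336 in D3. The neurofilament gene neflb had a fold change above 0, with overlap (0.88 ± 0.45). It was at 0.315, 0.555 and 0.503 CPM in SBM and 0.859, 1.15 and 0.527 in D3. Of 44 endothelial genes, 31 were below 0 with a median of −0.10, but the median was 0.04 without SBM library 2. esm1, a gene of endothelial tip cells, was at 3.9, 4.28 and 7.06 CPM in SBM, 3.1, 2.6 and 2.49 in D3 and 11.5, 9.996 and 10.13 in FM, with D3 below SBM and SBM below FM (−0.89 ± 0.28). The vascular cadherin gene cdh5 was at 8.25, 10.4 and 9.19 CPM in SBM and 7.67, 7.4 and 6.02 in D3 (−0.40 ± 0.21).

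Exocrine pancreas genes come from an organ attached to the gut. Of 40, 37 were below 0, with a median of −0.31. In 2 of them every D3 library was below SBM (5.0% not overlapping against 4.56% of all genes). The list's level overlapped between the groups, at −0.03, 0.69 and −0.26 in SBM and 0.05, −0.39 and −0.06 in D3. The median was 0.07 without the hepatocyte-high libraries and 0.00 without SBM library 2. The syncollin gene sycn.2 stood at 719, 1088 and 461 CPM in SBM, 519.6, 384 and 433 in D3 and 1076, 939 and 973 in FM (−0.76 ± 0.31). SBM library 2 was the highest of the 6 for this list and D3 library 2 the lowest. The part of attached pancreas in the other results was not tested.

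**Figure D3:**
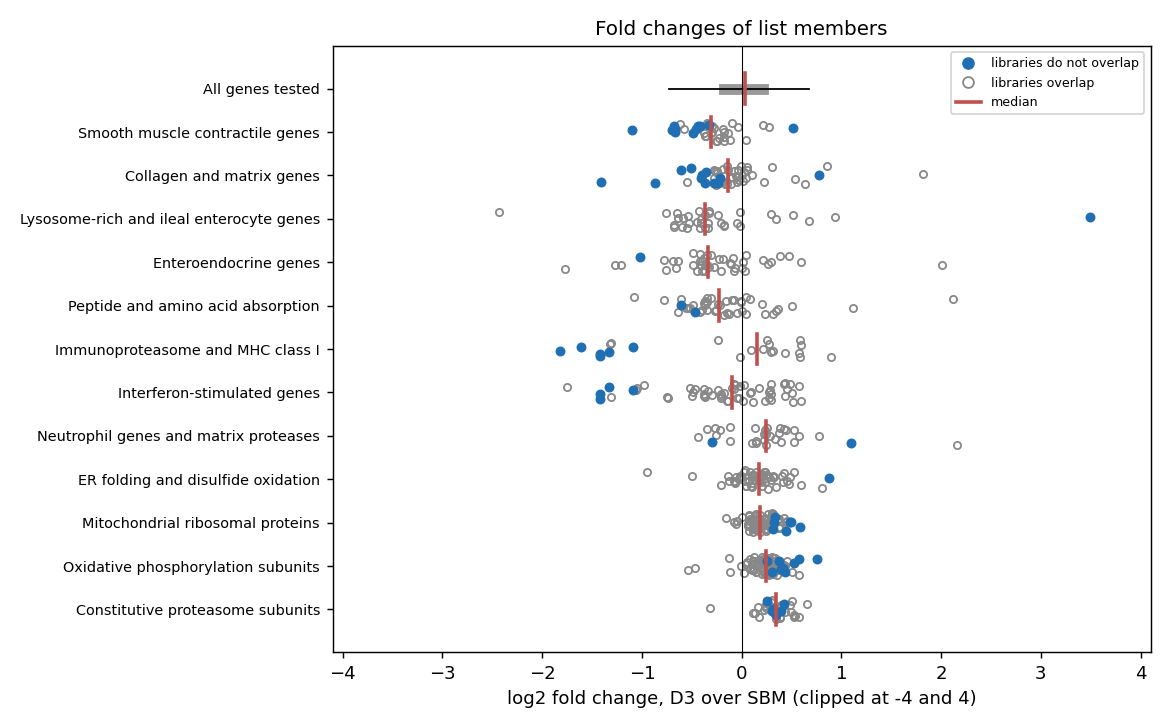
Log2 fold change of D3 over SBM for each tested member of 12 lists, with filled blue points where the libraries of the groups do not overlap and open points where they do. The red line is the list's median, and for all 19450 genes the thick and thin bars span the middle 50% and 90%. Smooth muscle (median −0.31) and lysosome-rich enterocyte genes (−0.36) lie mostly below 0, and constitutive proteasome subunits (0.34) mostly above.

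Lysosome-rich and ileal enterocyte genes were mostly lower in D3, although SBM library 1 was the lowest of all. Of 35 genes, 29 were below 0 and 6 above, with a median of −0.36 (−0.58 to −0.21 over the alternatives). Only tcnl, named above, did not overlap, and it was above SBM (2.86% not overlapping against 4.56% of all genes). The level was −0.44, 0.51 and 0.11 in SBM, −0.11, 0.16 and −0.23 in D3 and 0.34, 0.30 and 0.40 in FM. cubn, the gene of the uptake receptor cubilin, stood at 919.7, 1363 and 1739 CPM in SBM, 713, 1088 and 881 in D3 and 1415, 1602 and 2079 in FM (−0.58 ± 0.30). amn, its membrane anchor, was at 100.05, 241 and 246 CPM in SBM, 105, 147 and 115 in D3 and 269, 289 and 318 in FM (−0.67 ± 0.34). dab2, the endocytic adaptor, was at 572, 777 and 940.0 CPM in SBM, 298, 546 and 622 in D3 and 842, 696 and 1064 in FM (−0.64 ± 0.33). For cubn and amn, SBM library 1 was within or below the D3 values and SBM libraries 2 and 3 above them.

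The bile acid binding gene fabp6 repeated this order, with 3043, 6502 and 7144 CPM in SBM, 2833, 3976 and 3086 in D3 and 6841, 7287 and 7744 in FM (−0.75 ± 0.34). The fucosidase gene fuca1.2 was at 75, 142 and 150.2 CPM in SBM and 71.2, 90.2 and 81.1 in D3 (−0.60 ± 0.28). For both genes the FM libraries lay in or above the range of SBM libraries 2 and 3. Of 52 autophagy and lysosomal protease genes, 40 were below 0, with a median of −0.11 (−0.31 to −0.05) and 0 not overlapping, against 4.56% of all genes. Its member of smallest p, the cathepsin B gene ctsba, had a fold change above 0 (0.91 ± 0.50). It was at 362, 127 and 100.35 CPM in SBM and 346, 341 and 417 in D3.

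The list of absorptive enterocyte genes, which shares fabp6 with the lysosome-rich and ileal list, was near even. Of 52 absorptive enterocyte genes, 27 were above 0 and 25 below, with a median of 0.06 (−0.24 to 0.57 over the alternatives). Of its 3 members of smallest p, fabp6 had a fold change below 0, and chia.1 and mtp above. mtp, which encodes the protein that loads lipid on lipoproteins, was at 66.2, 92.6 and 41 CPM in SBM and 204, 152 and 55.2 in D3 (1.04 ± 0.48). The acid chitinase gene chia.1 was at 493, 608 and 160.1 CPM in SBM and 3487, 870.2 and 523 in D3 (1.95 ± 0.77). Both were highest in D3 library 1 and overlapped in library 3. Of 54 lipid absorption and lipoprotein genes, 33 were above 0 with a median of 0.23, which was −0.28 without the hepatocyte-high libraries. The part of liver RNA in this list was not tested. Of 32 cholesterol synthesis genes, 26 were below 0, with a median of −0.12 that was 0.08 without SBM library 2, and the receptor gene ldlrb was at 33.3, 32.9 and 32.8 CPM in SBM and 27.28, 22.8 and 23.6 in D3 (−0.43 ± 0.26).

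Amino acid and peptide uptake had the only genes of at least 500 CPM that were below SBM in every D3 library, apart from mhc1uba, described with the immune genes. slc15a2, the gene of the high-affinity peptide transporter PEPT2, stood at 636, 731 and 625 CPM in SBM, 541, 417 and 345 in D3 and 874, 1124 and 1063 in FM. The 3 groups did not overlap, with FM highest and D3 lowest (−0.61 ± 0.23; −0.93 to −0.49 over the alternatives). slc6a19b, a neutral amino acid transporter gene of the brush border, was at 1046, 1512 and 1091 CPM in SBM, 1039, 912 and 696 in D3 and 1524, 2275 and 2049 in FM (−0.46 ± 0.27). The highest D3 and the lowest SBM value nearly touched. The low-affinity peptide transporter gene slc15a1b overlapped, at 168, 357 and 135 CPM in SBM and 442, 199 and 193 in D3 (0.34 ± 0.49). The glutamyltransferase gene ggt1a also had a fold change above 0, with overlap (2.12 ± 0.89). It was at 0.266, 0.131 and 0.144 CPM in SBM and 1.3, 0.192 and 0.911 in D3. Of the 44 genes of the list, 32 were below 0, with a median of −0.23 that turned to 0.04 without SBM library 2.

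Enteroendocrine genes were mostly lower. Of 44, 33 were below 0 and 11 above, with a median of −0.34 (−0.51 to −0.14 over the alternatives). In 1 of them every D3 library was below every SBM library (2.27% not overlapping against 4.56% of all genes). The level was −0.19, 0.34 and 0.21 in SBM, −0.06, −0.04 and −0.27 in D3 and 0.47, 0.34 and 0.22 in FM, so SBM library 1 was again among the D3 values. The neuropeptide gene adcyap1a stood at 19.2, 28.9 and 39.5 CPM in SBM, 22.1, 17.7 and 15.5 in D3 and 42.4, 42.9 and 46.9 in FM (−0.66 ± 0.27). The relaxin-family hormone gene insl5b was at 4.43, 11.9 and 8.64 CPM in SBM, 4.62, 4.16 and 5.68 in D3 and 11.4, 14.8 and 11.7 in FM (−0.78 ± 0.35), and its paralogue insl5a at 16.9, 36.7 and 34.2 in SBM, 19.3, 24.7 and 12.4 in D3 and 30.9, 58.7 and 46.9 in FM (−0.64 ± 0.38). D3 was below the 2 higher SBM libraries for all 3 genes. pyyb, the peptide YY gene, stood at 2.59, 5.68 and 1.15 CPM in SBM and 29.6, 5.04 and 3.28 in D3 (2.01 ± 0.87), mainly through D3 library 1.

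Among secretory and barrier genes, goblet cell genes were near even, with 12 of 21 below 0 and a median of −0.06 (−0.59 to 0.00 over the alternatives). The secreted mucin gene muc2.1 was at 66.7, 62.3 and 102 CPM in SBM, 70.18, 46.3 and 45.6 in D3 and 86.8, 99.96 and 95 in FM, with overlap (−0.51 ± 0.26). creb3l1, a transcription factor gene of secretory cells, was at 2.66, 4.02 and 3.61 CPM in SBM, 1.94, 2.11 and 1.97 in D3 and 5.9, 4.47 and 5.44 in FM (−0.77 ± 0.26). stard10, a lipid transfer gene, was at 28.9, 38.8 and 53.8 CPM in SBM, 20.9, 26.3 and 20.5 in D3 and 48.5, 31.5 and 41.6 in FM (−0.84 ± 0.27). Both were below SBM in every D3 library, the only 2 of the list without overlap (9.52% against 4.56% of all genes). Of 46 tight junction genes, 20 were above and 26 below 0, with a median of −0.05 (−0.20 to 0.05 over the alternatives). The scaffold gene tjp1a was at 58.1, 55.8 and 59 CPM in SBM against 64.1, 55.8 and 53.5 in D3 (0.00 ± 0.15), the occludin gene oclna at 94.6, 71.5 and 56 in SBM against 71.3, 53.7 and 112 in D3 (0.10 ± 0.31), and the intestinal claudin gene cldn15la at 314, 515 and 570.5 in SBM against 691, 565 and 305 in D3 (0.16 ± 0.34). All 3 overlapped fully, and their signs turned under some alternatives.

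**Figure D4:**
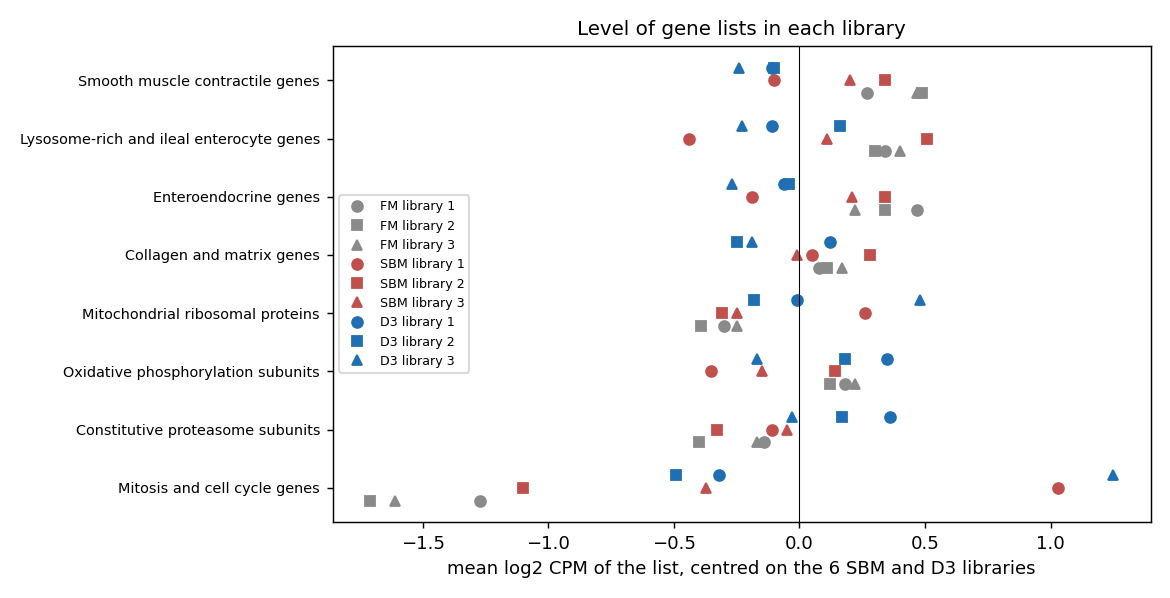
Mean log2 CPM of 8 gene lists in each library, centred on the 6 SBM and D3 libraries, with FM in grey, SBM in red and D3 in blue and the symbol giving the library number. Mitosis genes are high in SBM library 1 (1.03) and D3 library 3 (1.25), as oocyte genes are, and the proteasome list lies higher in all 3 D3 libraries (−0.03 to 0.36) than in SBM (−0.33 to −0.05).

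On the higher side, the subunits of the constitutive proteasome, the protease that degrades ubiquitin-tagged proteins, were nearly uniform. Of 36, 35 had a fold change above 0 and 1, psmb7, below, with a median of 0.34, and 6 were above SBM in every D3 library (16.7% not overlapping against 4.56%). The level was −0.11, −0.33 and −0.05 in SBM, 0.36, 0.17 and −0.03 in D3 and −0.14, −0.40 and −0.17 in FM, with D3 above SBM by a narrow step in library 3. psmd14, the gene of the deubiquitinase of the lid, stood at 39.4, 31.3 and 42.9 CPM in SBM, 57.2, 51.3 and 43.6 in D3 and 36.6, 35.6 and 37 in FM (0.42 ± 0.18). psma3, a subunit gene of the outer ring, was at 70.18, 59.8 and 86.6 CPM in SBM and 149, 116 and 75.3 in D3 (0.65 ± 0.28), and psmc1b, an ATPase gene of the base, at 27.9, 29.5 and 32.4 in SBM and 54.1, 44.2 and 29.1 in D3 (0.51 ± 0.24). D3 library 3 overlapped SBM for the last 2 genes. The catalytic subunit gene psmb5 was at 51.6, 43.7 and 45.5 CPM in SBM and 60.6, 58.1 and 56.4 in D3 (0.31 ± 0.16). The list's median was 0.45 without the oocyte-high pair and −0.11 with D3 library 3 alone.

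Oxidative phosphorylation subunits gave 80 of 85 genes above 0, with a median of 0.25, and 9 above SBM in every D3 library (10.6% against 2.0% of all genes). The list's level overlapped, at −0.35, 0.14 and −0.15 in SBM and 0.35, 0.18 and −0.17 in D3. ndufa4, a small subunit gene of the respiratory chain, stood at 101, 162 and 145 CPM in SBM, 280.5, 219.5 and 190.0 in D3 and 322, 255 and 214 in FM (0.76 ± 0.27). atp5ia, a subunit gene of the ATP synthase, was at 18.6, 29.3 and 24.3 CPM in SBM, 35.3, 37.2 and 35.4 in D3 and 31, 30.05 and 33 in FM (0.58 ± 0.19). cox6a1, a cytochrome c oxidase gene, was at 61.3, 54 and 58.5 CPM in SBM and 86.1, 79.9 and 69.2 in D3 (0.44 ± 0.17). For ndufa4 and atp5ia the FM libraries lay above all SBM values. The median was 0.27 without the oocyte-high pair and −0.02 with D3 library 3 alone.

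Mitochondrial ribosomal protein genes were above 0 for 69 of 74, with a median of 0.18 and 7 above SBM in every D3 library (9.46% against 2.0%). mrpl16 stood at 19, 24.6 and 21.9 CPM in SBM and 36.5, 28.4 and 33.1 in D3 (0.58 ± 0.20), and mrps10 at 21.2, 23 and 17.9 in SBM and 33.6, 23.9 and 27 in D3 (0.45 ± 0.19). Their level was highest in D3 library 3 (0.48) and SBM library 1 (0.26), the pair high in oocyte genes, and the median was −0.04 without D3 library 3. Cytosolic ribosomal proteins had 70 of 85 genes above 0 but a median of 0.05 (−0.17 to 0.34 over the alternatives). Of these genes 0 did not overlap, against 4.56% of all genes. The mitochondrial antioxidant genes prdx3 and sod2 were above SBM in every D3 library. In the Nrf2 target and antioxidant list, which holds prdx3, 2 of 68 genes did not overlap (2.94% against 4.56% of all genes). prdx3, a peroxiredoxin gene, was at 63, 78.3 and 77.8 CPM in SBM and 103, 98.6 and 84.7 in D3 (0.39 ± 0.18), and sod2, the manganese superoxide dismutase gene, at 75.5, 84.4 and 78.7 in SBM and 104, 90.3 and 102 in D3 (0.32 ± 0.16).

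Catalytic subunit genes of the inducible proteasome ran opposite, while the list they belong to did not. The immunoproteasome replaces catalytic subunits with psmb8, psmb9 and psmb10 products and supplies peptides to MHC class I. psmb8a stood at 72.1, 60.9 and 137 CPM in SBM, 41.8, 27.7 and 37.8 in D3 and 35.4, 95.6 and 154 in FM (−1.33 ± 0.52). psmb9a was at 48.8, 43.2 and 99.7 CPM in SBM, 27.17, 18.1 and 26.3 in D3 and 21.7, 60.5 and 108 in FM (−1.42 ± 0.56), and psmb10 at 53.9, 48.3 and 98.3 in SBM, 31.8, 21.2 and 22 in D3 and 23.8, 73.4 and 109 in FM (−1.42 ± 0.52). Every D3 library was below every SBM library for these genes and for psmb12, and FM library 1 was as low as D3 while FM libraries 2 and 3 were in or above the SBM range.

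Of the 22 genes of the immunoproteasome and MHC class I list, 12 were above 0 and 10 below, with a median of 0.15 (−0.61 to 0.36 over the alternatives). Every D3 library was below every SBM library for 6 of them (27.27%, against 2.56% of all genes). Besides the 4 subunits they were the class I heavy chain genes mhc1uba and mhc1uka. Within FM the 6 also varied together, each lowest in library 1, so they are not 6 separate results. mhc1uba stood at 733, 1145 and 2245 CPM in SBM, 530.5, 259 and 377 in D3 and 8.24, 1888 and 3282 in FM, a range over FM far wider than the step between SBM and D3 (−1.82 ± 1.34). mhc1uka was at 25.2, 46 and 80.7 CPM in SBM, 24.7, 9.94 and 15.05 in D3 and 1.88, 78.7 and 140.5 in FM (−1.61 ± 1.1). A related class I gene, mhc1zba, named after its values were seen, was highest in FM library 1, with 761, 186 and 438 CPM in SBM, 921, 912 and 739 in D3 and 1094, 128 and 248 in FM. Class I genes are similar in sequence, and how reads were split between them is not given, so the values of single members are uncertain. The light chain gene b2m overlapped, at 1847, 2344 and 3192 CPM in SBM and 3329, 3592 and 1995 in D3 (0.27 ± 0.32), as did the proteasome activator genes psme1 (0.60 ± 0.40) and psme2 (0.58 ± 0.45).

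Interferon-stimulated genes outside that group did not separate. Of 57, 22 were above 0 and 35 below, with a median of −0.10 that turned to 0.20 without SBM library 2. The 4 that did not overlap (7.02% against 4.56% of all genes) were psmb8a, psmb9a, psmb10 and psmb12. rsad2, the antiviral viperin gene, was at 12.9, 131 and 11.4 CPM in SBM, 16.6, 16.5 and 12.9 in D3 and 201, 119 and 74.5 in FM, and isg15, a ubiquitin-like modifier gene, at 32.6, 228 and 24.7 in SBM, 54.6, 48.1 and 34.1 in D3 and 310.5, 161 and 169 in FM. SBM library 2 alone reached the FM level for both, and the other 5 libraries of SBM and D3 were low. The transcription factor gene stat1a was at 46.4, 63.9 and 63.3 CPM in SBM and 64.3, 61.3 and 39 in D3 (−0.08 ± 0.24).

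Of the inflammation and barrier panel, 17 genes were tested and 1 did not overlap (5.88% against 4.56% of all genes). mmp9, a matrix protease of neutrophils and macrophages, stood at 4.24, 4.05 and 2.03 CPM in SBM, 9.19, 6.66 and 6.18 in D3 and 1.75, 4.08 and 4.43 in FM, with D3 above both other groups (1.09 ± 0.43; 0.74 to 1.36 over the alternatives). The cytokine gene il1b was at 5.47, 7.87 and 8.4 CPM in SBM and 26.9, 11.4 and 2.9 in D3 (0.92 ± 0.63), and ptgs2a, the inducible cyclooxygenase gene, at 0.653, 0.261 and 0.718 in SBM and 1.83, 1.15 and 0.36 in D3 (1.01 ± 0.64). For both, D3 library 1 was highest and D3 library 3 at the low end, so that the sign turned without the hepatocyte-high libraries (−1.33 for il1b and −0.99 for ptgs2a). tnfa was at 0.678, 1.27 and 2.58 CPM in SBM against 1.27, 0.52 and 0.719 in D3 (−0.85 ± 0.60), the neutrophil chemokine gene cxcl8a at 3.53, 5.32 and 6.46 in SBM against 6.15, 6.52 and 1.73 in D3 (−0.09 ± 0.48), and the anti-inflammatory gene il10 at 0.484, 0.294 and 1.32 in SBM against 0.831, 0.63 and 0.192 in D3 (−0.35 ± 0.95). The epithelial cytokine gene il22 was at 1.55, 1.34 and 2.87 CPM in SBM, 2.6, 2.11 and 0.743 in D3 and 5.34, 3.87 and 7.25 in FM (−0.08 ± 0.51). All 4 overlapped, and for cxcl8a, il10 and il22 D3 library 3 was the lowest of the 6. With D3 library 3 alone in D3, after the hepatocyte-high libraries were left out, the fold change was −1.61 for cxcl8a, −2.29 for il10, −1.64 for il22 and −1.27 for tnfa.

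The remaining panel members overlapped too. tgfb1a, a growth factor gene, was at 1.6, 2.61 and 2.18 CPM in SBM against 2.1, 2.05 and 1.49 in D3 (−0.18 ± 0.29), the Toll adaptor gene myd88 at 18.1, 16.2 and 24.4 in SBM against 18.4, 16.2 and 14.9 in D3 (−0.25 ± 0.25), and the NF-kB subunit gene rela at 8.71, 14 and 14.1 in SBM against 16.6, 13.2 and 9.44 in D3 (0.09 ± 0.28). nos2a, an inducible nitric oxide synthase gene, was at 1.14, 1.57 and 1.46 CPM in SBM and 1.27, 0.767 and 0.767 in D3 (−0.57 ± 0.46). The haem oxygenase gene hmox1a was at 29.6, 26.7 and 12.2 CPM in SBM, 24.6, 20.2 and 12.5 in D3 and 233, 140.2 and 121 in FM (−0.26 ± 0.41), so both groups were below FM. The gel-forming mucin gene muc5.1 was under 0.5 CPM in all 9 libraries.

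Wider immune lists gave few genes that did not overlap, as did all genes together (4.56%). Of 47 cytokine and chemokine genes, 21 were above 0 and 26 below, with 0 not overlapping, against 4.56% of all genes, and a median of −0.05. The counts changed with the libraries used. The median was 0.20 without D3 library 3, with 33 above 0 and 14 below, and −0.74 with D3 library 3 alone, with 6 above and 41 below. il17a/f3, an interleukin of the IL-17 family, had the smallest p, at 0.411, 1.44 and 1.2 CPM in SBM and 0.498, 0.247 and 0.216 in D3 (−1.65 ± 0.57), and SBM library 1 overlapped D3. Of 31 neutrophil and matrix protease genes, 23 were above 0, with a median of 0.24 that was −0.30 with D3 library 3 alone. The collagenase gene mmp13a was at 2.83, 3.2 and 1.53 CPM in SBM and 23.3, 9.2 and 1.17 in D3 (2.16 ± 0.85), high in D3 libraries 1 and 2 only. mpx, the neutrophil peroxidase gene, varied within every group, at 139.6, 51.4 and 964 CPM in SBM, 476, 449 and 35 in D3 and 139, 47.8 and 1327 in FM. Of 34 macrophage and dendritic cell genes, 25 were above 0 with a median of 0.15 and 0 not overlapping, against 4.56% of all genes. Their median was 0.00 without D3 library 2 and −0.43 with D3 library 3 alone. Of 38 T and NK lymphocyte genes, 23 were above 0, with a median of 0.17 (−0.28 to 0.28 over the alternatives). The coreceptor gene cd4-1 was the 1 above SBM in every D3 library (2.63% not overlapping against 4.56% of all genes). It was at 3.73, 3.46 and 3.71 CPM in SBM, 5.43, 6.9 and 4.29 in D3 and 7.19, 6.52 and 8.06 in FM (0.61 ± 0.24). Of 22 B lymphocyte genes, 14 were above 0, with a median of 0.13 (−0.06 to 0.15).

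Complement and acute phase genes followed the libraries high in hepatocyte genes. The hepatocyte list itself holds complement genes such as cfb and cfh, and shares hamp with the acute phase list, so this likeness is partly built in. Of 35 genes of the C3, classical and alternative pathways, 28 were above 0, with a median of 0.51. Their level was −0.44, 1.46 and −2.12 in SBM and 0.76, 2.08 and −1.74 in D3, beside hepatocyte list levels of −0.68, 2.62 and −3.03 and 0.97, 2.33 and −2.21. The median was 1.99 without SBM library 2 and −0.86 without the hepatocyte-high trio. cfd, the factor D gene, stood at 411, 456 and 402 CPM in SBM, 1052, 1273 and 403 in D3 and 755, 679.9 and 542 in FM (1.1 ± 0.39). It was high in D3 libraries 1 and 2, and SBM library 2, with a hepatocyte share of 6.81%, was near the other SBM libraries. The part of liver RNA in the complement and acute phase values was not tested. Of 25 acute phase genes, 17 were above 0, with a median of 0.28 that was 2.95 without SBM library 2, −0.57 without D3 library 2 and −0.77 without the hepatocyte-high trio.

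Among stress responses, the endoplasmic reticulum folding list had 47 of 60 genes above 0, with a median of 0.18 (−0.10 to 0.28 over the alternatives). Its 1 member that did not overlap was ero1a (1.67% against 4.56% of all genes). The chaperone gene hspa5 was at 691, 133 and 254 CPM in SBM and 155, 449 and 495 in D3 (0.03 ± 0.62), highest in SBM library 1. The isomerase gene pdia6 was at 36.7, 37.8 and 63 CPM in SBM and 46.3, 131 and 63.2 in D3 (0.80 ± 0.40). The list of the unfolded protein response and degradation was even, with 25 of 46 above 0 and a median of 0.02 (−0.03 to 0.15 over the alternatives). Of 58 hypoxia genes, 34 were above 0, with a median of 0.09 (−0.05 to 0.20). hif1an, which encodes the asparagine hydroxylase that inhibits HIF-1, stood at 41.6, 40.1 and 35.8 CPM in SBM, 53.6, 57.8 and 49.9 in D3 and 43.6, 42.5 and 41.6 in FM, with D3 above all others (0.46 ± 0.15; 0.31 to 0.53 over the alternatives). The glycolytic enolase gene eno1a was at 102, 121 and 104 CPM in SBM, 199, 167 and 125 in D3 and 184, 149 and 160.2 in FM (0.58 ± 0.22). Of 38 glycolysis genes, 27 were above 0, with a median of 0.07 that kept its sign in all 19 alternatives (0.01 to 0.41). The lowest value, without D3 library 1, was 0.011, below the median of 0.037 over all genes.

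In the iron, haem and metallothionein list, 1 of 42 genes was above SBM in every D3 library and 2 were below (7.14% not overlapping against 4.56% of all genes). mt2, a metallothionein gene that binds zinc and copper, stood at 440.4, 484 and 565 CPM in SBM, 147, 141 and 356 in D3 and 296, 321 and 572 in FM. D3 was below SBM, by most in libraries 1 and 2 (−1.21 ± 0.42), and the fold change was −1.89 without the oocyte-high pair and −0.57 with D3 library 3 alone. slc11a2, the gene of the iron importer DMT1, was at 127, 174 and 200.3 CPM in SBM, 51.5, 118 and 96.9 in D3 and 114, 60.4 and 163 in FM, with FM overlapping both (−0.91 ± 0.42). The mitochondrial carrier gene slc25a38a, which supplies glycine for haem, was at 3.07, 3.66 and 0.503 CPM in SBM and 22.7, 3.53 and 11.8 in D3 (2.40 ± 0.83), with D3 library 2 inside the SBM range. Over the 42 genes of iron, haem and metallothionein, 24 were above 0 and 18 below, with a median of 0.07 (−0.08 to 0.13 over the alternatives). Of 68 Nrf2 target and antioxidant genes, 39 were above 0, with a median of 0.08 (−0.13 to 0.33 over the alternatives), and nqo1, a quinone reductase gene, was at 30.1, 53.6 and 37.9 CPM in SBM and 87.6, 63.3 and 39.1 in D3 (0.64 ± 0.32).

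Circadian clock genes had 6 of 40 members not overlapping (15.0% against 4.56% of all genes), 3 in each direction, and a median of 0.00. per1b, a repressor gene of the clock, stood at 34.8, 50.3 and 46.5 CPM in SBM, 31.7, 27.23 and 26.2 in D3 and 46.8, 51.6 and 55.8 in FM (−0.63 ± 0.19; −0.76 to −0.51 over the alternatives). per3 was at 26.6, 40.2 and 30.8 CPM in SBM, 27.8, 18.8 and 18 in D3 and 37.6, 37.1 and 43.3 in FM (−0.60 ± 0.24), with D3 library 1 overlapping SBM. nfil3-5, of the family of NFIL3 repressors that oppose DBP factors, was at 2.98, 5.32 and 3.37 CPM in SBM, 9.06, 6.11 and 8.25 in D3 and 4.02, 3.77 and 4.89 in FM (1.0 ± 0.30), and dbpa at 1.91, 3.62 and 1.75 in SBM, 1.72, 1.48 and 0.935 in D3 and 3.73, 3.08 and 3.33 in FM (−0.82 ± 0.38). D3 was thus below SBM for per1b and dbpa and above for nfil3-5. For dbpa the highest D3 value (1.72) and the lowest SBM value (1.75) nearly touched. The labels give no sampling time. The early response gene nr4a1 was at 12.4, 8.75 and 6.51 CPM in SBM, 4.29, 4.46 and 4.75 in D3 and 33.5, 12.1 and 13.9 in FM, the lowest in D3 (−1.03 ± 0.41).

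Cell cycle genes moved with the oocyte-rich libraries. Of 72 mitosis genes, 64 were above 0, with a median of 0.29, but the level was 1.03, −1.10 and −0.37 in SBM and −0.32, −0.49 and 1.25 in D3. The median was −0.71 without D3 library 3, 1.29 without SBM library 1 and 0.29 without both. cenpf, a kinetochore gene, stood at 9.1, 5.06 and 7.83 CPM in SBM, 15.7, 11.4 and 10.55 in D3 and 6.26, 3.47 and 3.4 in FM, with D3 above SBM (0.77 ± 0.34). e2f8, a cell cycle repressor gene, was at 3.92, 2.94 and 4.45 CPM in SBM and 8.81, 5.31 and 4.58 in D3 (0.72 ± 0.43). Among 60 DNA replication genes, rrm2, of ribonucleotide reductase, was at 13, 14.4 and 63 CPM in SBM, 66.9, 56 and 361 in D3 and 18.4, 22.2 and 19.3 in FM (2.42 ± 0.86), with SBM library 3 in the D3 range. For the ovary list itself the median was −0.02, with 28 of 61 above 0.

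Over all 62 lists, the median kept its sign in every one of the 19 alternatives for 8. Below 0 were smooth muscle, lysosome-rich enterocytes, enteroendocrine cells, collagen and matrix, enteric neurons and glia, and autophagy with lysosomal proteases, 6 in all. Above 0 were fatty acid synthesis, with a median of 0.19, and glycolysis, 2 in all. Of 28 fatty acid synthesis genes, 18 were above 0 and 0 did not overlap, against 4.56% of all genes. Its level overlapped, at −0.08, 0.34 and −0.61 in SBM and 0.40, 0.10 and −0.15 in D3. Its median fell to 0.02 without the hepatocyte-high libraries. Lists overlap in genes and share libraries, so these counts are not separate results.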

How the data were processed

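RNA was sequenced from zebrafish intestine, with libraries made by a SMARTer mRNA kit from RNeasy RNA per the labels' protocols. The authors deposited whole-number counts per gene for 9 libraries and an FPKM table. Per the values, the deposited FPKM are the same counts divided by a gene length and the library total, so they served only for alternatives. No source used here names the aligner, counter, genome build or strand setting, so reads of overlapping or antisense genes cannot be told apart. Groups came from library titles, and no column was left unmapped.

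Total counts per library are in the report. Counts were fitted in R 4.3.3 with edgeR 4.0.16 (filterByExpr with a minimum count of 10, TMM scaling, 19450 of 26983 genes kept). The quasi-likelihood fit took all 9 libraries, with group means and 6 residual degrees of freedom. Two-sided p-values were adjusted by Benjamini-Hochberg over all genes tested, and the threshold was 0.05. The SE of a fold change is its size over the square root of F. CPM used TMM-scaled library sizes. The biological coefficient of variation was 50.48%, and exact intervals cover counting error only, since PCR copies of a molecule were not told apart. The scripts were tested on simulated data. Alternatives used DESeq2 1.42.0, limma 3.58.1 (voom, and log2 of FPKM plus 0.1 or 1), other scalings, no filter, the 6 libraries alone, a replicate block, covariates and left-out libraries.

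The libraries and the gene lists were chosen with earlier results of these data known. Of 2542 listed symbols, 2227 were found by name and 124 by synonym in RefSeq (assembly GRCz12tu, names only). Named genes were drawn from the 8 of smallest p in each direction without overlap and with a mean of at least 1 CPM, the 5 of largest fold change at 20 and at 500 CPM, the 3 of smallest p and at most 3 eponymous members of each described list, the tested panel, and genes with at most 10 counts over one group and at least 10 in each library of the other. Not every member of smallest p in a list is printed. Other genes named beside them (such as elavl3, sncgb, psmb5, b2m, psme1, rsad2, mpx, sod2, slc11a2, dbpa and cdh5) were chosen after their values were seen.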

Additional observations from a re-analysis of the deposited data

How the results depend on the processing

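Over 19 alternatives, edgeR called 0 genes in every fit except that with oocyte and hepatocyte list levels as covariates, chosen after seeing the data, which called 1 (si:dkey-18p12.4, lower). DESeq2 called 5, 2 higher and 3 lower, and limma called 0 in each of its fits. Leaving out 1 library in turn called 0 to 0 genes, while the count at an unadjusted p under 0.05 ran from 384 to 1491, against 402. The replicate block called 0 genes, with 274 at an unadjusted p under 0.05. The 6 libraries alone also gave 0 called, with 208 at that level. Same-numbered deviations from the group mean correlated at −0.578, 0.519 and −0.031. D3 libraries 1 and 3 correlated best with SBM libraries 2 and 1, and D3 library 2 with SBM library 2. With 3 libraries a group that differ in oocyte and hepatocyte genes, these values cannot tell whether the samples were paired. Of 92 named genes followed (those without overlap and the panel), 80 kept 1 sign in all alternatives. The genes without overlap were chosen for that in these same data, so their kept sign is largely built in. The sign turned for 11 panel genes, none past a threshold, and tgfb1a reached 0.00 in 1 alternative; for each the cause was not tested. Without the hepatocyte-high libraries the log2 fold change was −1.33 for il1b, −0.35 for rela, −0.99 for ptgs2a, −0.19 for tjp1a and −0.61 for cldn15la. Under the same setting il10 stood at −2.29, il22 at −1.64, cxcl8a at −1.61 and tnfa at −1.27, with signs kept. Without the oocyte-high libraries it was 0.07 for cxcl8a, 0.19 for hmox1a, −0.05 for oclna and 0.12 for il22. It was 0.19 for il10 with the replicate block. For tjp1a it was −0.01 with library size alone, −0.01 with the 6 libraries alone and −0.00 with the oocyte covariate, and for muc5.1 0.05 and 0.07 with the covariates. With 1 library left out the range was −0.01 to 1.39 for il1b, −0.38 to 0.30 for cxcl8a, −0.77 to 0.48 for il10, −0.12 to 0.26 for rela, −0.08 to 0.04 for tjp1a, −0.26 to 0.32 for oclna, −0.43 to 0.33 for il22, −0.60 to 0.85 for muc5.1 and −0.10 to 0.41 for cldn15la.

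Of the 62 lists, 8 kept the sign of their median throughout, and over lists and alternatives 48 medians moved by more than the spread between libraries and 1130 did not. The depth was 34721741 to 36203230 counts, and the biological coefficient of variation was 50.48%. Whether depth or the spread between libraries limited the calls was not tested.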
